A study of Rattus norvegicus with 8 samples.

Results

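The genes described here encode developmental ligands and guidance receptors: Wnt ligands and frizzled receptors, Notch receptors with their ligands and targets, bone morphogenetic proteins (BMPs) and growth differentiation factors with their receptors, fibroblast growth factors (FGFs) with theirs, semaphorins with plexins and neuropilins, and ephrins with Eph receptors. They were taken from the deposited tables by name. A gene was kept if it was protein-coding, appeared in any of the 5 tables, and had a symbol starting with Wnt, Fzd, Notch, Jag, Hey, Sema, Plxn, Nrp, Eph, Efn, Bmp, Fgf or Gdf, with Ephx (epoxide hydrolases) left out. This gave 70 of the 8468 protein-coding genes and of the 9025 genes in all that the tables list. RefSeq annotates 148 rat protein-coding genes with such names. The 70 comprised 9 Wnt, 9 Notch, 18 BMP, 8 FGF, 17 semaphorin and 9 ephrin genes. A table holds a gene only where its unadjusted p was under 0.05. A gene of these families that is missing here was not listed, and nothing is said of its level. Some names share a prefix without sharing the signal: Jagn1 is a protein of the endoplasmic reticulum, Bmp2k is a kinase, and Bmp1 is a proteinase that processes procollagen.

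The RNA came from ventricular cardiomyocytes, the contractile cells of the main pumping chambers, isolated from Sprague Dawley rats aged 2 to 3 days and cultured. Cells were kept for 24 h in an ischemic condition of 1% oxygen and 5% carbon dioxide or in normoxia, and received either eugenol at 10 µM, the phenol that scents cloves, or the solvent DMSO. The 4 groups were ischemia eugenol, ischemia DMSO, normoxia eugenol and normoxia DMSO, with 2 libraries each. The parts of the ischemic condition cannot be told apart. The labels do not state whether replicate libraries are separate isolations or cultures, so p-values reflect only how these libraries vary, which may be technical.

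Library totals, the read totals behind the deposited FPKM values (fragments per kilobase of gene and megaread), were 14.7 to 17.7 M reads. Levels below are in RPM, the reads of a gene per megaread of that total, and levels of different genes are compared only in FPKM. The cultures held cardiomyocyte transcripts, and 7 of 8 cardiomyocyte markers were listed. Their summed level was 21047 to 25693 RPM in the ischemia libraries and 40511 to 45174 RPM in the normoxia libraries. In ischemia eugenol against normoxia eugenol, all 7 were called lower. In ischemia DMSO against normoxia DMSO, 6 were called lower and 1, Myh7, higher (log2 fold change 0.40, adjusted p = 0.000544, in the authors' deposited table). Markers of other cells were present, and their summed levels were also lower in ischemia: fibroblast markers summed to 6684 to 8149 RPM in ischemia and 13780 to 16282 RPM in normoxia, over 6 of 8. These sums are carried by collagens. The fibroblast marker Dcn was called higher in ischemia eugenol than in normoxia eugenol (1.39, adjusted p = 4.57e-31). It was also called higher in ischemia DMSO than in normoxia DMSO (1.21, adjusted p = 1.04e-18, both in the authors' deposited tables). Endothelial markers summed to 72.0 to 95.4 RPM in ischemia and 202 to 245 RPM in normoxia, over 4 of 8. Most of this sum was Eng, at 66.1 to 86.5 RPM in ischemia and 182 to 223 RPM in normoxia. Smooth muscle markers, over 5 of 6, reached 1084 to 1287 RPM in ischemia and 4368 to 5366 RPM in normoxia, and macrophage markers, over 5 of 8, 28.3 to 36.1 RPM in ischemia and 72.6 to 82.2 RPM in normoxia. No summed marker was at 0, and of 7 markers of glia and neurons 2 were listed, neither in all 8 libraries. The part of these shifts in the results below was not tested, and in such bulk RNA fewer cells of a type and less RNA per cell cannot be told apart.

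These pathways build the heart and remain in use after birth. Wnt proteins bind frizzled receptors and act through β-catenin or through polarity and calcium signalling. Notch receptors are cut when a ligand on a neighbouring cell binds, and the freed domain switches on Hey and Hes genes. BMPs signal through paired type I and type II receptor kinases to SMAD proteins, and FGFs through receptor tyrosine kinases to the MAP kinase cascade. Semaphorins acting on plexins and neuropilins, and ephrins acting on Eph receptors, steer growing axons and vessels and the migrating cells that partition the outflow tract.

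Most of these genes changed with ischemia, in either direction. In ischemia DMSO against normoxia DMSO, 57 of the 70 were called at the authors' adjusted p under 0.05, 22 higher and 35 lower in ischemia, while 75.5% of all 8468 listed protein-coding genes were called (36.3% higher and 39.2% lower). In ischemia eugenol against normoxia eugenol, 57 were called, 24 higher and 33 lower, while 73.8% of the listed genes were (35.2% higher and 38.6% lower). At this threshold, with no fold minimum, the families as a whole stood near the background share, and the count says nothing particular about them. These 2 matched comparisons of ischemia with normoxia, referred to below as with DMSO and with eugenol, share no library. In both, 21 genes rose and 32 fell, and 0 moved in opposite directions. Over all listed protein-coding genes 30.5% rose in both and 34.1% fell in both, 64.5% together. A further 4 genes were called only with DMSO, 4 only with eugenol, and 9 in neither. The third comparison, ischemia eugenol against normoxia DMSO, uses libraries of the other 2 and called 54 (22 higher, 32 lower), with 70.8% of all listed genes called. At least 2-fold changes were called for 31 of the 70 in ischemia eugenol against normoxia eugenol, beside 27.6% of all listed protein-coding genes (11.7% higher, 15.9% lower), and for 29 in ischemia DMSO against normoxia DMSO, beside 28.9% (12.4% higher, 16.5% lower). Such changes numbered 31 in ischemia eugenol against normoxia DMSO, beside 28% (11.7% higher, 16.4% lower). At this fold minimum the share of the 70 was above that of the listed genes in each comparison. As a gene is listed where it changed, these shares describe the tables and are no test of the families. Among the 57 genes with counts in all 8 libraries, the 4 ischemia libraries lay wholly above the 4 normoxia libraries for 21 and wholly below for 34, which is 96.5% without overlap, against 98.4% of all 6268 such protein-coding genes. Fzd1 and Epha3 overlapped.

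**Figure D1:**
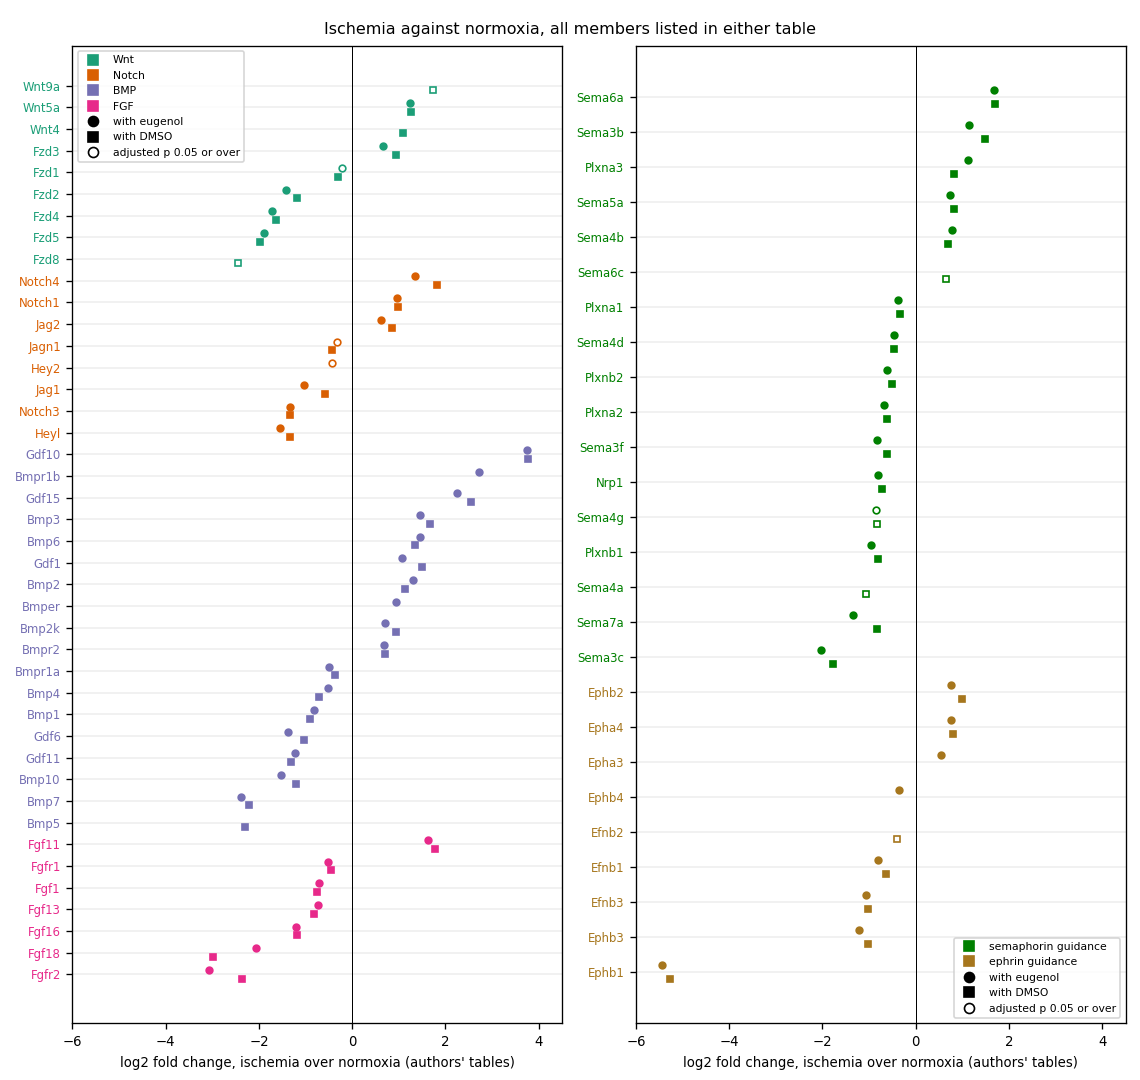
Log2 fold change of ischemia over normoxia in the authors' deposited tables for each gene listed in either matched comparison, with eugenol (circles) and with DMSO (squares), coloured by family; open symbols have an adjusted p of 0.05 or over. No gene called in both comparisons lies on opposite sides of 0, and the values run from -5.44 for Ephb1 to 3.77 for Gdf10.

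By family the split differed in counts, without a test of the difference. The BMP genes included 8 that rose and 7 that fell in both comparisons, of 18. Of 8 FGF genes 1 rose and 6 fell. Notch genes were evenly divided at 3 and 3 of 9, and Wnt genes at 2 and 3 of 9. Of the guidance genes, 5 semaphorin-system genes rose and 9 fell, of 17, and 2 ephrin-system genes rose and 4 fell, of 9. Over all 8468 listed protein-coding genes, 30.5% rose in both and 34.1% fell in both. Each family holds few genes, and whether any family differs from those shares was not tested.

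The promoters of 3 genes that rose and 1 that fell are shown to set both directions beside a simple sequence feature, the core of the hypoxia response element bound by hypoxia-inducible factor. The sequences are RefSeq's, build GRCr8, each from 250 bases before the annotated start to 50 bases after it, read along the gene. By symbol 54 of the 70 genes were matched. Capitals mark ACGTG or GCGTG or their reverse complements. Wnt5a is the highest listed Wnt ligand, Gdf15 and Gdf10 had the largest rise in level and in fold among BMP genes, and Notch3, the highest listed Notch receptor, fell. They lie at chr16:3703415-3703714 on the plus strand (Wnt5a), chr16:18838186-18838485 on the plus strand (Gdf15), chr16:9243262-9243561 on the plus strand (Gdf10) and chr7:11834536-11834835 on the minus strand (Notch3).
Wnt5a: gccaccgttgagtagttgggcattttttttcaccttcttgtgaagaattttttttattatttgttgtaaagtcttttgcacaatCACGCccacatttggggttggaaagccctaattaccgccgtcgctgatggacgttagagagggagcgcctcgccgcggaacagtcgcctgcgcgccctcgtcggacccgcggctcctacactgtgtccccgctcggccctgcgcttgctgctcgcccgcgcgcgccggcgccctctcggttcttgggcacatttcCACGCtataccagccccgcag
Gdf15: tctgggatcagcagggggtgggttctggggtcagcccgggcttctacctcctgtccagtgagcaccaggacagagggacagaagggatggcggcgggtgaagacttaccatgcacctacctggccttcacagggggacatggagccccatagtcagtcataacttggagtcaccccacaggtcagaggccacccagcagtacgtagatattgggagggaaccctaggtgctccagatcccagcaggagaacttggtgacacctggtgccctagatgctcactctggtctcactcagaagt
Gdf10: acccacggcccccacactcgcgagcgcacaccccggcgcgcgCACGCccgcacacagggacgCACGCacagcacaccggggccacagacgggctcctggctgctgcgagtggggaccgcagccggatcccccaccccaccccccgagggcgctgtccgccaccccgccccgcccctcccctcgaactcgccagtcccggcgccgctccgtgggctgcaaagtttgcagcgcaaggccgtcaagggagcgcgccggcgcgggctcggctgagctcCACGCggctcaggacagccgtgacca
Notch3: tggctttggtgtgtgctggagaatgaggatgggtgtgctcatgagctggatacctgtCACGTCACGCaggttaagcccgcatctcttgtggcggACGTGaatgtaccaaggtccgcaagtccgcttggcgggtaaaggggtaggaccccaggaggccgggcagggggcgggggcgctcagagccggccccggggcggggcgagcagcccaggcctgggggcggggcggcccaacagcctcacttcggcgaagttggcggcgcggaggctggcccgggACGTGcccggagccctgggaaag
The Wnt5a window holds 2 matches and the Gdf10 window holds 3. No match stands in the Gdf15 window, whose gene rose, while the Notch3 window, whose gene fell, holds 4, none sharing a base with another. Over both strands, 42.9% of 27457 promoters of this length hold either motif, against 50% of the 54 matched genes, 62.5% of the 16 that rose in both comparisons and 47.8% of the 23 that fell in both. ACGTG is in 19.7% of all promoters, 18.5% of the matched genes, 18.8% of those that rose and 17.4% of those that fell. GCGTG is in 31.1%, 38.9%, 50% and 39.1%, in that order, so the higher pooled shares come from GCGTG and not from ACGTG. These are matches of letters and say nothing of binding.

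Among the Wnt genes, the ligand Wnt5a rose while the receptors Fzd2, Fzd4 and Fzd5 fell. Wnt5a acts mostly without β-catenin, through the receptors Ror2 and frizzled, and had 73.2 and 69.4 RPM in ischemia eugenol and 68.5 and 68.7 in ischemia DMSO, against 29.2 and 31.5 RPM in normoxia eugenol and 30.4 and 26.6 in normoxia DMSO. All 4 ischemia libraries lay above all 4 normoxia libraries, at about the same distance with and without eugenol. For Wnt5a, the authors' deposited tables gave log2 fold changes of 1.23 (adjusted p = 5.49e-17) with eugenol and 1.26 (adjusted p = 2.81e-16) with DMSO. Wnt4, a ligand of kidney and gonad development, was listed only in the DMSO comparison, with 14.4 and 13.7 RPM in ischemia DMSO and 4.89 and 8.39 RPM in normoxia DMSO, and its log2 fold change in the authors' deposited table was 1.08 (adjusted p = 0.0013). Wnt9a, a ligand of joint development, rested on few reads, 25 and 33 in ischemia DMSO against 14 and 3 in normoxia DMSO, and was not called there (adjusted p = 0.0972 in the authors' deposited table). It was called higher in ischemia eugenol, with 28 and 43 reads, against the same normoxia DMSO libraries (log2 fold change 2.05, adjusted p = 0.0367, in the authors' deposited table).

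Of the 6 listed frizzled receptors, Fzd2, Fzd4 and Fzd5 fell and Fzd3 rose in both comparisons. Fzd5, which carries β-catenin signals in many tissues, had 9.37 and 11.7 RPM in ischemia eugenol against 39.3 and 39.1 in normoxia eugenol, and 10.6 and 7.84 RPM in ischemia DMSO against 35.9 and 36.9 in normoxia DMSO. Fzd4, a receptor of retinal vessels that also binds norrin, had 19.1 and 22.7 RPM in ischemia eugenol and 22.5 and 22.6 in ischemia DMSO, against 70.4 and 66.3 RPM in normoxia eugenol and 68.1 and 70.4 in normoxia DMSO. In both genes all 4 ischemia libraries lay below all 4 normoxia libraries. Fzd5 had log2 fold changes of -1.90 (adjusted p = 5.29e-21) with eugenol and -1.98 (adjusted p = 7.14e-20) with DMSO in the authors' deposited tables. For Fzd4, the authors' deposited tables gave log2 fold changes of -1.71 (adjusted p = 6.15e-27) with eugenol and -1.62 (adjusted p = 1.04e-26) with DMSO. Fzd2 had 56.7 and 58.4 RPM in ischemia eugenol against 161 and 148 in normoxia eugenol, and 64.4 and 61.3 RPM in ischemia DMSO against 135 and 149 in normoxia DMSO. Fzd2 was lower in every ischemia library than in any normoxia library, with log2 fold changes of -1.43 (adjusted p = 1.2e-34) with eugenol and -1.18 (adjusted p = 5.81e-22) with DMSO in the authors' deposited tables. Fzd3, a receptor of planar cell polarity and axon growth, moved the other way with 11.1 and 11.0 RPM in ischemia eugenol and 13.0 and 11.2 in ischemia DMSO, against 7.11 and 6.81 RPM in normoxia eugenol and 6.77 and 5.84 in normoxia DMSO. No ischemia library of Fzd3 reached the normoxia range, which lay below, and the authors' deposited tables gave log2 fold changes of 0.66 (adjusted p = 0.0472) with eugenol and 0.94 (adjusted p = 0.00387) with DMSO. Fzd1 was the most abundant and the least changed, with 315 and 361 RPM in ischemia eugenol against 381 and 399 in normoxia eugenol, and 324 and 298 RPM in ischemia DMSO against 409 and 355 in normoxia DMSO. The groups of each matched comparison did not overlap, although ischemia eugenol 2 lay above normoxia DMSO 2, and the authors' deposited tables gave -0.21 (adjusted p = 0.069) with eugenol and -0.30 (adjusted p = 0.0127) with DMSO. In edgeR's refit the call with DMSO was lost without ischemia DMSO 2 (-0.24, adjusted p = 0.0817) or without normoxia DMSO 1 (-0.19, adjusted p = 0.0943). With eugenol it was called without ischemia eugenol 2 (-0.31, adjusted p = 0.0186), normoxia DMSO 1 (-0.21, adjusted p = 0.0339) or normoxia DMSO 2 (-0.21, adjusted p = 0.0337).

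The order of the receptors differed by condition in level per length. In ischemia DMSO, Fzd1 had 70.7 ± 4.10 FPKM and Fzd2 32.9 ± 1.13 FPKM (mean ± SD, n = 2, as in all such values), well apart, followed by Fzd3 at 4.40 ± 0.445, Fzd5 at 4.28 ± 0.904 and Fzd4 at 3.29 ± 0.0106 FPKM, of which Fzd3 and Fzd5 did not differ beyond their spread. In normoxia DMSO, Fzd1 had 86.9 ± 8.71 and Fzd2 74.5 ± 5.22 FPKM, followed by Fzd5 at 16.9 ± 0.320, Fzd4 at 10.1 ± 0.241 and Fzd3 at 2.29 ± 0.238 FPKM. Fzd1 made up 61.1% of the summed level of the 6 listed receptors in ischemia DMSO and 45.5% in normoxia DMSO. Fzd8 was at 7 reads in ischemia DMSO against 36 in normoxia DMSO, a ratio of 0.188 (95% counting interval 0.0707 to 0.429), and was not called.

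Of 43 Wnt pathway partners chosen as a list, 22 were in a table. In ischemia DMSO 7 were called higher and 13 lower, and in ischemia eugenol 7 higher and 13 lower. Each was set against the normoxia group of the same treatment. Among all 8468 listed protein-coding genes, 36.3% were called higher and 39.2% lower with DMSO, and 35.2% and 38.6% with eugenol. The partner lists were not tested as sets. Sfrp1, a secreted antagonist that binds Wnts, fell to 53.1 and 70.8 RPM in ischemia eugenol and 59.3 and 59.5 RPM in ischemia DMSO, against 337 and 327 RPM in normoxia eugenol and 326 and 318 RPM in normoxia DMSO. Ror2, the co-receptor for Wnt5a, fell to 27.8 and 26.8 RPM in ischemia eugenol and 25.6 and 26.7 RPM in ischemia DMSO, against 134 and 139 RPM in normoxia eugenol and 114 and 127 RPM in normoxia DMSO. Both changes were called in the authors' deposited tables, with log2 fold changes in the DMSO comparison of -2.44 (adjusted p = 3.55e-122) for Sfrp1 and -2.21 (adjusted p = 4.23e-59) for Ror2. The ligand Wnt5a was higher in the same libraries in which its co-receptor Ror2 was lower. Sfrp4, another such antagonist, fell at a lower level, and Rspo2, which amplifies Wnt signals, had 0 reads in every ischemia library and 0.249 to 0.665 RPM in normoxia libraries.

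The Notch receptors moved in opposite directions: Notch1 and Notch4 rose, and Notch3 fell. Notch4, the receptor of endothelium, had 16.7 and 18.4 RPM in ischemia eugenol and 17.9 and 18.6 in ischemia DMSO, against 6.47 and 7.22 RPM in normoxia eugenol and 5.26 and 5.04 in normoxia DMSO. Notch1, the receptor of trabeculae and valves, had 26.2 and 27.5 RPM in ischemia eugenol against 14.1 and 13.3 in normoxia eugenol, and 23.0 and 22.8 RPM in ischemia DMSO against 11.9 and 11.3 in normoxia DMSO. Each had its ischemia libraries wholly above its normoxia libraries. Notch4 had log2 fold changes of 1.36 (adjusted p = 6.88e-07) with eugenol and 1.82 (adjusted p = 3.13e-11) with DMSO in the authors' deposited tables. For Notch1, the authors' deposited tables gave log2 fold changes of 0.97 (adjusted p = 6.76e-06) with eugenol and 0.98 (adjusted p = 2.45e-05) with DMSO. Notch3, the receptor of vascular smooth muscle and pericytes, had 45.4 and 53.9 RPM in ischemia eugenol and 49.4 and 47.3 in ischemia DMSO, against 129 and 119 RPM in normoxia eugenol and 107 and 137 in normoxia DMSO. For Notch3, with every ischemia library below every normoxia library, the authors' deposited tables gave log2 fold changes of -1.33 (adjusted p = 1.53e-23) with eugenol and -1.34 (adjusted p = 9.39e-20) with DMSO. The smooth muscle markers given above were lower in the same ischemia libraries as Notch3, and the endothelial markers were lower while Notch4 was higher. Whether the marker shifts bear on either receptor was not tested.

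Per length, Notch3 remained the most abundant listed Notch receptor, with 6.61 ± 0.199 FPKM in ischemia DMSO and 16.7 ± 2.92 FPKM in normoxia DMSO. Behind it, Notch4 at 2.83 ± 0.0781 and Notch1 at 2.40 ± 0.0161 FPKM lay close together in ischemia DMSO, where Notch2 was not listed, and Notch2 at 7.69 ± 0.444, Notch1 at 1.22 ± 0.0484 and Notch4 at 0.796 ± 0.0242 FPKM followed it in normoxia DMSO. Notch2 was listed in 1 table only, for eugenol in normoxia.

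The ligands were divided as well. Jag1, the ligand whose loss causes Alagille syndrome in humans, had 23.0 and 23.6 RPM in ischemia eugenol against 53.7 and 41.3 in normoxia eugenol, and 27.4 and 26.9 RPM in ischemia DMSO against 35.7 and 45.4 in normoxia DMSO. Jag2 had 31.0 and 30.7 RPM in ischemia eugenol and 31.1 and 33.4 in ischemia DMSO, against 19.8 and 20.2 RPM in normoxia eugenol and 19.3 and 16.2 in normoxia DMSO. Neither gene's ischemia and normoxia libraries overlapped, with Jag1 lower and Jag2 higher in ischemia. Jag1 had log2 fold changes of -1.03 (adjusted p = 3.97e-08) with eugenol and -0.58 (adjusted p = 0.00331) with DMSO in the authors' deposited tables. For Jag2, the authors' deposited tables gave log2 fold changes of 0.62 (adjusted p = 0.00185) with eugenol and 0.85 (adjusted p = 3.55e-05) with DMSO. Among the target genes, Heyl, a transcriptional repressor switched on by Notch, had 11.9 and 12.9 RPM in ischemia eugenol against 37.5 and 34.9 in normoxia eugenol, and 13.8 and 13.5 RPM in ischemia DMSO against 32.3 and 36.7 in normoxia DMSO. Heyl was lower in every ischemia library than in any normoxia library, with log2 fold changes of -1.55 (adjusted p = 2.88e-15) with eugenol and -1.34 (adjusted p = 2.37e-11) with DMSO in the authors' deposited tables. Hey2, which marks compact ventricular muscle, was not called (adjusted p = 0.103 with eugenol in the authors' deposited table), with 15.3 and 12.7 RPM in ischemia eugenol against 19.3 and 18.5 RPM in normoxia eugenol. Of the matched comparisons, Jagn1 was called by the authors only with DMSO, and edgeR's refit also called it with eugenol (-0.32, adjusted p = 0.00594).

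Of 33 Notch pathway partners, 20 were in a table. In ischemia eugenol 8 were called higher and 8 lower, and in ischemia DMSO 7 higher and 7 lower, each against its normoxia group. Beside them, 73.8% and 75.5% of all listed protein-coding genes were called. Lfng, a glycosyltransferase that alters which ligands Notch answers to, had 1.56 and 1.98 RPM in ischemia eugenol and 1.58 and 1.44 RPM in ischemia DMSO, against 6.27 and 6.47 RPM in normoxia eugenol and 5.62 and 7.34 RPM in normoxia DMSO. Numb and Numbl, which hold Notch back, both rose, with log2 fold changes in the DMSO comparison of the authors' deposited table of 0.93 (adjusted p = 1.19e-06) and 0.90 (adjusted p = 1.52e-09). Psen2, a catalytic part of the enzyme that cuts Notch, fell by 0.78 (adjusted p = 3.43e-10 in the same deposited table).

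**Figure D2:**
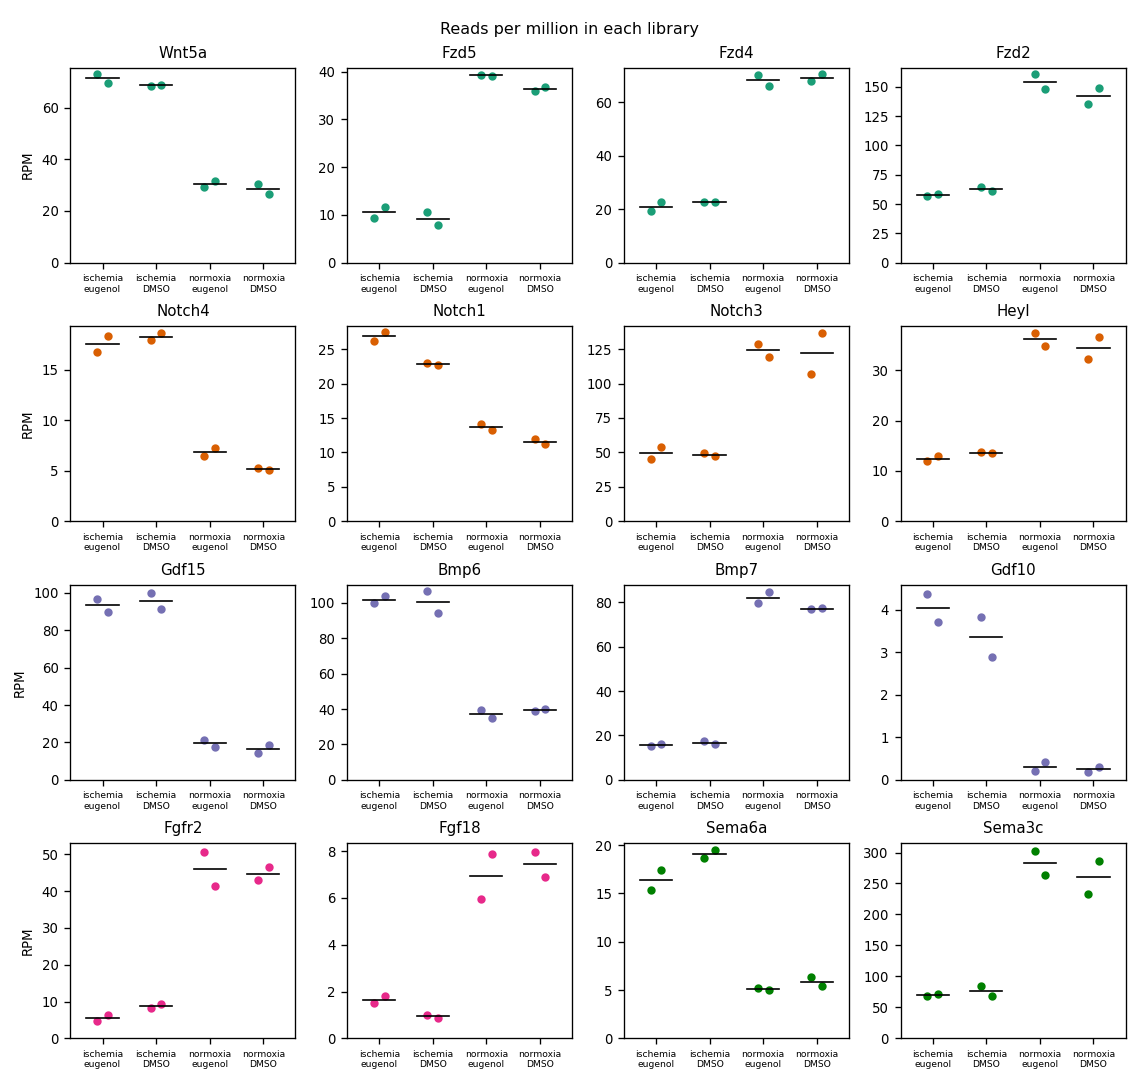
Level in RPM in each of the 8 libraries for 16 genes, with ischemia eugenol, ischemia DMSO, normoxia eugenol and normoxia DMSO left to right; points are libraries and lines are means of 2. Wnt5a, Notch4, Notch1, Gdf15, Bmp6, Gdf10 and Sema6a are higher in all 4 ischemia libraries and the other 9 genes are lower in all 4.

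The BMP genes held the largest rises. Gdf15, a stress cytokine of this family whose receptor Gfral lies in the hindbrain, had 96.6 and 90.0 RPM in ischemia eugenol and 100.1 and 91.5 in ischemia DMSO, against 21.4 and 17.5 RPM in normoxia eugenol and 14.2 and 18.4 in normoxia DMSO. All 4 ischemia libraries lay several-fold above all 4 normoxia libraries. Gdf15 had log2 fold changes of 2.26 (adjusted p = 7.78e-50) with eugenol and 2.55 (adjusted p = 6.67e-56) with DMSO in the authors' deposited tables. Gdf10, also called Bmp3b, rose on few reads: 132 reads in ischemia eugenol against 9 in normoxia eugenol, a ratio of 13.5 (95% counting interval 6.91 to 30.2), and 114 reads in ischemia DMSO against 8 in normoxia DMSO, a ratio of 13.8 (6.77 to 32.7). The intervals cover counting error only, and both rises were called (adjusted p = 1.3e-06 with eugenol and 6.9e-06 with DMSO in the authors' deposited tables).

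Another 4 ligands of the family rose. Bmp6, the BMP that controls iron uptake through hepcidin, had 99.8 and 104 RPM in ischemia eugenol against 39.2 and 34.9 in normoxia eugenol, and 107 and 94.2 RPM in ischemia DMSO against 38.7 and 39.8 in normoxia DMSO. No ischemia library of Bmp6 reached the normoxia range, which lay below, and the authors' deposited tables gave log2 fold changes of 1.45 (adjusted p = 1.89e-27) with eugenol and 1.35 (adjusted p = 1.45e-22) with DMSO. Bmp3, which opposes other BMPs in bone, had 51.0 and 50.3 RPM in ischemia eugenol and 59.5 and 53.7 in ischemia DMSO, against 17.5 and 19.6 RPM in normoxia eugenol and 17.2 and 18.2 in normoxia DMSO. For Bmp3, with every ischemia library above every normoxia library, the authors' deposited tables gave log2 fold changes of 1.44 (adjusted p = 2.4e-17) with eugenol and 1.67 (adjusted p = 3.61e-23) with DMSO. Bmp2, which patterns the atrioventricular canal, had 26.6 and 21.4 RPM in ischemia eugenol against 10.9 and 8.37 in normoxia eugenol, and 25.8 and 19.1 RPM in ischemia DMSO against 8.94 and 11.6 in normoxia DMSO. Gdf1, which sets left and right in the embryo, had 31.6 and 32.6 RPM in ischemia eugenol and 35.6 and 37.1 in ischemia DMSO, against 14.5 and 16.2 RPM in normoxia eugenol and 9.73 and 16.1 in normoxia DMSO. Reads of Gdf1 may belong in part to Cers1, with which it shares a transcript in mammals. For Bmp2, the authors' deposited tables gave log2 fold changes of 1.31 (adjusted p = 2.13e-07) with eugenol and 1.13 (adjusted p = 2.48e-05) with DMSO. Gdf1 had log2 fold changes of 1.06 (adjusted p = 1.41e-07) with eugenol and 1.49 (adjusted p = 4.65e-10) with DMSO in the authors' deposited tables.

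Other ligands fell. Bmp7, a ligand of kidney development, had 15.2 and 16.3 RPM in ischemia eugenol against 79.7 and 84.5 in normoxia eugenol, and 17.5 and 15.9 RPM in ischemia DMSO against 77.2 and 77.3 in normoxia DMSO. The 4 ischemia libraries lay close together, far below the 4 normoxia libraries. For Bmp7, the authors' deposited tables gave log2 fold changes of -2.38 (adjusted p = 1.12e-55) with eugenol and -2.21 (adjusted p = 2.03e-46) with DMSO. Bmp10, a ligand of the trabeculated heart that is needed for its growth in the mouse, had 6.75 and 4.91 RPM in ischemia eugenol and 9.02 and 7.65 in ischemia DMSO, against 18.0 and 15.4 RPM in normoxia eugenol and 17.8 and 20.8 in normoxia DMSO. Bmp10 was lower in every ischemia library than in any normoxia library, with log2 fold changes of -1.52 (adjusted p = 2.83e-07) with eugenol and -1.21 (adjusted p = 4.1e-06) with DMSO in the authors' deposited tables. Gdf11, a relative of myostatin, had 10.4 and 16.0 RPM in ischemia eugenol against 31.6 and 29.9 in normoxia eugenol, and 10.8 and 11.2 RPM in ischemia DMSO against 27.2 and 27.0 in normoxia DMSO. No ischemia library of Gdf11 reached the normoxia range, which lay above, and the authors' deposited tables gave log2 fold changes of -1.22 (adjusted p = 3.72e-07) with eugenol and -1.31 (adjusted p = 1.76e-09) with DMSO. Gdf6, a ligand of joint and eye development, had 20.1 and 20.3 RPM in ischemia eugenol and 30.2 and 25.1 in ischemia DMSO, against 56.1 and 48.3 RPM in normoxia eugenol and 53.6 and 59.7 in normoxia DMSO. For Gdf6, with every ischemia library below every normoxia library, the authors' deposited tables gave log2 fold changes of -1.37 (adjusted p = 8.42e-16) with eugenol and -1.04 (adjusted p = 1.33e-09) with DMSO. Bmp4, a ligand of heart induction, fell by less, with 14.7 and 14.2 RPM in ischemia eugenol against 22.4 and 19.1 in normoxia eugenol, and 15.0 and 14.2 RPM in ischemia DMSO against 23.0 and 24.9 in normoxia DMSO. Bmp4 was lower in every ischemia library than in any normoxia library, with log2 fold changes of -0.52 (adjusted p = 0.0373) with eugenol and -0.71 (adjusted p = 0.00169) with DMSO in the authors' deposited tables. With DESeq2's size factors edgeR's refit no longer called it with eugenol (-0.29, adjusted p = 0.0563). Of the matched comparisons, Bmp5 was called lower only with DMSO (log2 fold change -2.30, adjusted p = 0.0192, in the authors' deposited table). That call rested on few reads, 7 and 5 in ischemia DMSO against 31 and 26 in normoxia DMSO.

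The receptors Bmpr1a and Bmpr2 moved in opposite directions. Bmpr1a, the type I receptor needed for the myocardium of the mouse, had 164 and 158 RPM in ischemia eugenol and 189 and 165 in ischemia DMSO, against 229 and 222 RPM in normoxia eugenol and 231 and 224 in normoxia DMSO. Bmpr2, the type II receptor mutated in human pulmonary arterial hypertension, had 162 and 195 RPM in ischemia eugenol against 106 and 118 in normoxia eugenol, and 174 and 170.3 RPM in ischemia DMSO against 108 and 103 in normoxia DMSO. Bmpr1a was lower and Bmpr2 higher in all 4 ischemia libraries than in any normoxia library. Bmpr1a had log2 fold changes of -0.49 (adjusted p = 1.53e-06) with eugenol and -0.36 (adjusted p = 0.00272) with DMSO in the authors' deposited tables. For Bmpr2, the authors' deposited tables gave log2 fold changes of 0.67 (adjusted p = 1.51e-07) with eugenol and 0.70 (adjusted p = 4.14e-10) with DMSO. With DESeq2's size factors edgeR's refit no longer called Bmpr1a with DMSO (-0.13, adjusted p = 0.178). Bmpr1b was called higher with eugenol and was not listed with DMSO. It was at 36 reads in ischemia eugenol against 5 in normoxia eugenol, a ratio of 6.64 (95% counting interval 2.6 to 21.7). Bmper, a secreted BMP modulator of vessels, was likewise called higher with eugenol and not listed with DMSO. Bmp2k rose and Bmp1 fell in both comparisons.

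In level per length, Gdf15 led the BMP genes in ischemia DMSO at 105 FPKM on average, above Bmp6 at 66.0 FPKM and Bmpr1a at 56.3 FPKM. In normoxia DMSO, Bmpr1a led at 72.1 FPKM, above Bmp7 at 38.1 FPKM, and Gdf15 stood at 17.9 FPKM.

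**Figure D3:**
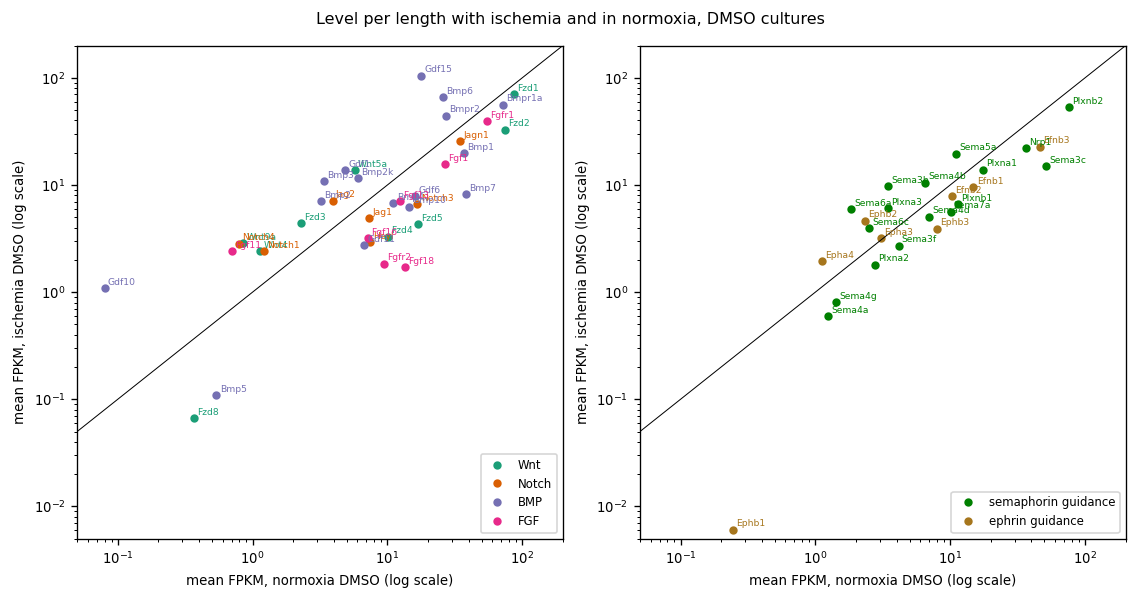
Mean FPKM in ischemia DMSO (vertical) against normoxia DMSO (horizontal), both on log scales, for each gene with values in both groups; left, Wnt, Notch, BMP and FGF genes, right, guidance genes, and the line marks equal levels. Gdf15 and Bmp6 stand above the line among the most abundant genes, and Bmp7, Sema3c and Fzd2 below it.

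Of 37 BMP pathway partners, 20 were in a table. In ischemia eugenol 6 were called higher and 10 lower, and in ischemia DMSO 7 higher and 11 lower, each against its normoxia group. The shares of all listed protein-coding genes called were 73.8% and 75.5%. Id1, a direct target of BMP signals through SMADs, had 19.2 and 30.2 RPM in ischemia eugenol and 23.4 and 16.1 RPM in ischemia DMSO, against 80.1 and 70.5 RPM in normoxia eugenol and 74.6 and 82.3 RPM in normoxia DMSO. Id3, another such target, moved alike, with log2 fold changes in the authors' deposited tables of -1.56 (adjusted p = 7.89e-24) with eugenol and -1.90 (adjusted p = 3.87e-46) with DMSO. The 2 secreted antagonists named by the rule moved apart. Grem1 fell to 3.06 and 5.99 RPM in ischemia eugenol and 4.45 and 4.45 RPM in ischemia DMSO, against 38.9 and 39.3 RPM in normoxia eugenol and 44.1 and 42.3 RPM in normoxia DMSO. Chrd rose, with a log2 fold change in the DMSO comparison of the authors' deposited table of 1.62 (adjusted p = 8.93e-09).

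Of the 8 FGF genes, 6 fell and Fgf11 rose in both comparisons. Fgfr2, a receptor for FGFs of epithelia and of the developing heart, had 4.81 and 6.23 RPM in ischemia eugenol and 8.17 and 9.41 in ischemia DMSO, against 50.7 and 41.3 RPM in normoxia eugenol and 43.0 and 46.6 in normoxia DMSO. All 4 ischemia libraries lay several-fold below all 4 normoxia libraries. Fgfr2 had log2 fold changes of -3.06 (adjusted p = 5.65e-44) with eugenol and -2.36 (adjusted p = 3.44e-33) with DMSO in the authors' deposited tables. Fgfr1, the main FGF receptor of muscle, fell by less, with 125 and 135 RPM in ischemia eugenol against 184 and 189 in normoxia eugenol, and 135 and 133 RPM in ischemia DMSO against 196 and 173 in normoxia DMSO. No ischemia library of Fgfr1 reached the normoxia range, which lay above, and the authors' deposited tables gave log2 fold changes of -0.52 (adjusted p = 1.61e-06) with eugenol and -0.46 (adjusted p = 0.000128) with DMSO. In level per length Fgfr1 stood above Fgfr2 in ischemia DMSO, at 39.6 against 1.84 FPKM on average, and in normoxia DMSO, at 54.5 against 9.39 FPKM.

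The ligands fell too. Fgf18, a ligand of bone and lung growth, rested on 24 and 30 reads in ischemia eugenol and 18 and 14 reads in ischemia DMSO, against 92 and 116 reads in normoxia eugenol and 132 and 111 reads in normoxia DMSO. For Fgf18, the authors' deposited tables gave log2 fold changes of -2.07 (adjusted p = 1.05e-05) with eugenol and -2.98 (adjusted p = 1.02e-09) with DMSO. Fgf16, a ligand made by heart muscle, had 5.44 and 3.71 RPM in ischemia eugenol and 5.24 and 5.21 in ischemia DMSO, against 10.6 and 10.4 RPM in normoxia eugenol and 11.1 and 12.4 in normoxia DMSO. For Fgf16, with every ischemia library below every normoxia library, the authors' deposited tables gave log2 fold changes of -1.21 (adjusted p = 0.000882) with eugenol and -1.18 (adjusted p = 0.000288) with DMSO. Fgf1, the acidic FGF, had 69.3 and 76.2 RPM in ischemia eugenol against 114 and 122 in normoxia eugenol, and 73.7 and 67.3 RPM in ischemia DMSO against 136 and 103 in normoxia DMSO. Fgf1 was lower in every ischemia library than in any normoxia library, with log2 fold changes of -0.70 (adjusted p = 1.63e-08) with eugenol and -0.76 (adjusted p = 1.19e-06) with DMSO in the authors' deposited tables.

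Fgf11 and Fgf13, relatives that stay inside the cell and bind sodium channels, moved apart. Fgf11 had 7.62 and 6.23 RPM in ischemia eugenol and 6.76 and 7.34 in ischemia DMSO, against 1.68 and 2.79 RPM in normoxia eugenol and 1.87 and 2.24 in normoxia DMSO. No ischemia library of Fgf11 reached the normoxia range, which lay below, and the authors' deposited tables gave log2 fold changes of 1.63 (adjusted p = 0.000542) with eugenol and 1.77 (adjusted p = 6.33e-05) with DMSO. Fgf13, the main such factor of rodent heart, had 18.8 and 19.5 RPM in ischemia eugenol against 29.5 and 34.0 in normoxia eugenol, and 21.8 and 19.1 RPM in ischemia DMSO against 41.0 and 30.4 in normoxia DMSO. For Fgf13, with every ischemia library below every normoxia library, the authors' deposited tables gave log2 fold changes of -0.73 (adjusted p = 0.000297) with eugenol and -0.81 (adjusted p = 0.00021) with DMSO. Fgfrl1, a receptor without a kinase domain, was listed only for ischemia eugenol against normoxia DMSO and was not called (adjusted p = 0.0866 in the authors' deposited table).

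Of 28 FGF pathway partners, 15 were in a table. In ischemia eugenol 2 were called higher and 7 lower, and in ischemia DMSO 4 higher and 9 lower, each against its normoxia group. Beside these counts, 73.8% and 75.5% of all listed protein-coding genes were called. The partners named by the rule, taken for their largest changes, are genes switched on by FGF signals, and all 4 fell. Other genes of the list did not all do so. Spred1 was called higher with DMSO (log2 fold change 0.58, adjusted p = 0.00987) and was not listed with eugenol. Dusp6 was called lower with DMSO (-0.73, adjusted p = 0.00148) but not with eugenol (-0.37, adjusted p = 0.0969, all in the authors' deposited tables). Spry2 was called lower in both. Spry1, an inhibitor made in answer to FGF, had 22.2 and 20.7 RPM in ischemia eugenol and 27.6 and 25.8 RPM in ischemia DMSO, against 70.3 and 62.1 RPM in normoxia eugenol and 62.4 and 66.0 RPM in normoxia DMSO. Spry4, of the same kind, and the transcription factors Etv1 and Etv4 had log2 fold changes in the DMSO comparison of the authors' deposited table of -1.06 (adjusted p = 1.84e-11), -1.22 (adjusted p = 1.06e-07) and -1.23 (adjusted p = 1.47e-10), in that order.

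In the semaphorin system, secreted Sema3c had the largest fall and transmembrane Sema6a the largest rise. Sema3c, which guides neural crest cells into the outflow tract, had 67.6 and 72.3 RPM in ischemia eugenol and 84.6 and 67.7 in ischemia DMSO, against 303 and 264 RPM in normoxia eugenol and 233 and 286 in normoxia DMSO. It was the most abundant listed semaphorin in normoxia DMSO, at 51.1 FPKM on average. Sema3c was lower in every ischemia library than in any normoxia library, with log2 fold changes of -2.02 (adjusted p = 3.39e-74) with eugenol and -1.77 (adjusted p = 1.46e-37) with DMSO in the authors' deposited tables. Sema6a, which acts through class A plexins, had 15.4 and 17.4 RPM in ischemia eugenol against 5.24 and 4.97 in normoxia eugenol, and 18.7 and 19.5 RPM in ischemia DMSO against 6.35 and 5.41 in normoxia DMSO. No ischemia library of Sema6a reached the normoxia range, which lay below, and the authors' deposited tables gave log2 fold changes of 1.68 (adjusted p = 7.34e-09) with eugenol and 1.69 (adjusted p = 3.45e-10) with DMSO. Sema3b and Sema5a also rose, Sema3b with 20.5 and 20.4 RPM in ischemia eugenol and 24.1 and 25.0 in ischemia DMSO, against 8.28 and 10.3 RPM in normoxia eugenol and 8.88 and 8.58 in normoxia DMSO, and Sema5a with 206 and 211 RPM in ischemia eugenol against 117 and 133 in normoxia eugenol, and 195 and 218 RPM in ischemia DMSO against 124 and 110.2 in normoxia DMSO. Sema5a, which holds thrombospondin repeats, was the most abundant listed semaphorin in ischemia DMSO, at 19.6 FPKM, next to Sema3c at 15.0 FPKM. Sema3b had log2 fold changes of 1.13 (adjusted p = 8.91e-06) with eugenol and 1.49 (adjusted p = 1.52e-10) with DMSO in the authors' deposited tables. For Sema5a, the authors' deposited tables gave log2 fold changes of 0.74 (adjusted p = 4.05e-11) with eugenol and 0.82 (adjusted p = 9.17e-12) with DMSO.

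Sema4b rose and Sema3f, Sema4d and Sema7a fell in both comparisons. The call of Sema4d, which acts on Plxnb1, was lost in edgeR's refit with DMSO without normoxia DMSO 1 (-0.31, adjusted p = 0.0687), and with eugenol without ischemia eugenol 1 (-0.32, adjusted p = 0.0595) or normoxia eugenol 2 (-0.38, adjusted p = 0.052). It was also lost with DESeq2's size factors, with eugenol (-0.24, adjusted p = 0.109) and with DMSO (-0.23, adjusted p = 0.115). Sema7a, which is anchored to the membrane by a lipid and binds integrins, had 14.0 and 8.50 RPM in ischemia eugenol and 12.3 and 17.4 in ischemia DMSO, against 27.5 and 29.6 RPM in normoxia eugenol and 27.6 and 25.1 in normoxia DMSO. Its libraries within ischemia differed more than those within normoxia. For Sema7a, with every ischemia library below every normoxia library, the authors' deposited tables gave log2 fold changes of -1.35 (adjusted p = 1.42e-07) with eugenol and -0.84 (adjusted p = 0.000594) with DMSO. Sema4a, Sema4g and Sema6c were listed and called by the authors in no comparison.

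Of the 6 listed plexin and neuropilin receptors, 5 fell and 1 rose in both comparisons. Nrp1, which binds class 3 semaphorins and vascular endothelial growth factor, had 129 and 119.9 RPM in ischemia eugenol against 212 and 224 in normoxia eugenol, and 123 and 124 RPM in ischemia DMSO against 210.2 and 198 in normoxia DMSO. Nrp1 was lower in every ischemia library than in any normoxia library, with log2 fold changes of -0.81 (adjusted p = 1.15e-14) with eugenol and -0.73 (adjusted p = 2.44e-11) with DMSO in the authors' deposited tables. Plxna3 was the exception, with 53.6 and 56.0 RPM in ischemia eugenol and 42.0 and 47.2 in ischemia DMSO, against 24.4 and 26.0 RPM in normoxia eugenol and 24.1 and 26.5 in normoxia DMSO. Ischemia and normoxia libraries did not overlap for Plxna3, and its log2 fold change in the authors' deposited tables was 1.12 (adjusted p = 3.25e-12) with eugenol and 0.81 (adjusted p = 5.24e-06) with DMSO. Plxnb2, the most abundant guidance receptor listed, had 327 and 356 RPM in ischemia eugenol against 532 and 515 in normoxia eugenol, and 363 and 336 RPM in ischemia DMSO against 495 and 499 in normoxia DMSO. For Plxnb2, with every ischemia library below every normoxia library, the authors' deposited tables gave log2 fold changes of -0.62 (adjusted p = 2.74e-11) with eugenol and -0.51 (adjusted p = 2.3e-07) with DMSO. Plxnb1, the receptor of Sema4d, had 43.7 and 48.4 RPM in ischemia eugenol and 42.7 and 46.2 in ischemia DMSO, against 89.5 and 88.6 RPM in normoxia eugenol and 72.7 and 81.5 in normoxia DMSO. Plxnb1 was lower in every ischemia library than in any normoxia library, with log2 fold changes of -0.95 (adjusted p = 1.2e-12) with eugenol and -0.80 (adjusted p = 5.33e-08) with DMSO in the authors' deposited tables. Plxna1 and Plxna2 fell by less, with log2 fold changes in the authors' deposited tables of -0.39 and -0.69 with eugenol and -0.33 and -0.63 with DMSO. Plxna1 was not called with DESeq2's size factors, with eugenol (-0.16, adjusted p = 0.0889) or with DMSO (-0.09, adjusted p = 0.302).

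In the ephrin system the receptor Ephb1 all but disappeared from the ischemia libraries, where it had 1 and 0 reads with eugenol and 1 and 0 with DMSO, against 21 and 19 reads in normoxia eugenol and 16 and 21 in normoxia DMSO. The ratio was 0.023 (95% counting interval 0.000569 to 0.136) with eugenol and 0.0262 (0.000646 to 0.155) with DMSO, and both were called in the authors' deposited tables (adjusted p = 0.00521 and 0.00832). Ephb3 fell as well, with 15.2 and 17.7 RPM in ischemia eugenol against 40.6 and 35.4 in normoxia eugenol, and 15.8 and 15.5 RPM in ischemia DMSO against 28.5 and 35.3 in normoxia DMSO. Ischemia and normoxia libraries did not overlap for Ephb3, and its log2 fold change in the authors' deposited tables was -1.21 (adjusted p = 6.03e-10) with eugenol and -1.03 (adjusted p = 1.1e-06) with DMSO. Ephb2 rose, with 20.2 and 19.5 RPM in ischemia eugenol and 22.5 and 23.7 in ischemia DMSO, against 11.4 and 11.8 RPM in normoxia eugenol and 12.8 and 10.4 in normoxia DMSO. For Ephb2, with every ischemia library above every normoxia library, the authors' deposited tables gave log2 fold changes of 0.76 (adjusted p = 0.00204) with eugenol and 0.99 (adjusted p = 3.59e-05) with DMSO. The B-type receptors, which answer to membrane-spanning ephrins, thus moved in both directions.

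Epha4, a receptor of both ephrin classes, had 14.9 and 8.74 RPM in ischemia eugenol against 6.66 and 7.28 in normoxia eugenol, and 10.4 and 14.2 RPM in ischemia DMSO against 7.80 and 6.34 in normoxia DMSO. It was called higher in both comparisons, but ischemia eugenol 2 at 8.74 RPM lay close to the normoxia libraries. Epha4 had log2 fold changes of 0.75 (adjusted p = 0.0447) with eugenol and 0.79 (adjusted p = 0.0196) with DMSO in the authors' deposited tables. In the edgeR refit the log2 fold change with eugenol was 0.33 (adjusted p = 0.233) without ischemia eugenol 1 and 0.69 (adjusted p = 0.0634) without normoxia eugenol 1, and with DMSO it was 0.56 (adjusted p = 0.102) without ischemia DMSO 2 and 0.66 (adjusted p = 0.0616) without normoxia DMSO 2. In the matched comparisons, Ephb4, the receptor of veins, and Epha3 were called only with eugenol, in opposite directions. The log2 fold changes in the authors' deposited table were -0.36 for Ephb4 and 0.55 for Epha3. Of the ligands, Efnb3 had 67.6 and 71.5 RPM in ischemia eugenol and 63.5 and 80.1 in ischemia DMSO, against 140.2 and 152 RPM in normoxia eugenol and 151 and 140.3 in normoxia DMSO. Efnb3 was lower in every ischemia library than in any normoxia library, with log2 fold changes of -1.08 (adjusted p = 3.84e-20) with eugenol and -1.03 (adjusted p = 1.66e-13) with DMSO in the authors' deposited tables. Efnb1, mutated in human craniofrontonasal syndrome, had 26.9 and 33.0 RPM in ischemia eugenol against 53.0 and 51.5 in normoxia eugenol, and 31.1 and 31.1 RPM in ischemia DMSO against 45.6 and 51.3 in normoxia DMSO. Ischemia and normoxia libraries did not overlap for Efnb1, and its log2 fold change in the authors' deposited tables was -0.81 (adjusted p = 2.6e-06) with eugenol and -0.65 (adjusted p = 0.00015) with DMSO. Efnb2, the ligand of arteries, was not called (adjusted p = 0.0867 in the authors' deposited table for the DMSO comparison).

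Of 38 other guidance genes chosen as a list, 18 were in a table. In ischemia eugenol 6 were called higher and 8 lower, and in ischemia DMSO 6 higher and 5 lower, each against its normoxia group. The shares over all listed protein-coding genes were 73.8% and 75.5% called. Ntn1, the attractant netrin, had 26.9 and 29.8 RPM in ischemia eugenol and 23.2 and 24.2 RPM in ischemia DMSO, against 11.8 and 16.1 RPM in normoxia eugenol and 14.8 and 10.1 RPM in normoxia DMSO. Dpysl2, which carries semaphorin signals to microtubules, and Mical3, an oxidase acting on actin, fell, with log2 fold changes in the DMSO comparison of the authors' deposited table of -1.24 (adjusted p = 3.18e-27) and -0.83 (adjusted p = 4.08e-12). Vav3 rose, with log2 fold changes in the authors' deposited tables of 0.95 (adjusted p = 0.0374) with eugenol and 0.96 (adjusted p = 0.0188) with DMSO.

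Scaling sets the zero of these changes. The typical gene among the 6582 counted in every library had a log2 fold change with DMSO of -0.31 (median) on the totals, -0.23 under TMM and -0.08 under DESeq2's size factors. With edgeR's quasi-likelihood refit on the totals, 56 of the 57 genes were called with eugenol and 56 with DMSO, but 99.2% and 99.5% of all refitted genes were (98.7% for ischemia eugenol against normoxia DMSO), since the tables had selected them. Small falls depend on the scaling. With DESeq2's size factors, Bmpr1a, Jagn1, Fzd1, Plxna1 and Sema4d with DMSO and Bmp4, Plxna1 and Sema4d with eugenol were no longer called, and Fzd1 with eugenol turned to 0.02 (adjusted p = 0.855).

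None of these genes passed the threshold for eugenol against DMSO. The authors' deposited table for ischemia eugenol against ischemia DMSO lists 4 of the 70, and 0 were called, against 0.272% of all listed genes (0.154% higher, 0.118% lower). That for normoxia eugenol against normoxia DMSO lists 1, and 0 were called, against 0.272% of all listed genes (0.0945% higher, 0.177% lower). edgeR's quasi-likelihood refit called 0 of 57 in ischemia (smallest adjusted p 0.722), against 0.0152% of all refitted genes. At an unadjusted p under 0.05 there were 7 of the 57 (12.3%), against 3.68% of all refitted genes. It called 0 in normoxia (smallest adjusted p 0.988), against 0.0456%, with 2 (3.51%) at an unadjusted p under 0.05, against 4.16% of all refitted genes. DESeq2 called 0 in each. The median absolute log2 fold change of the 57 was 0.0971 in ischemia and 0.109 in normoxia, beside 0.0811 and 0.0898 over all refitted genes. Over both oxygen levels pooled, 0 were called (smallest adjusted p 0.947), against 0.0304% of all 6582 genes, and DESeq2 called 0. At an unadjusted p under 0.05 there were 5 (8.77%), against 4.35% of all 6582.

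The 5 listed genes were these. Fgfr2 had 4.81 and 6.23 RPM in ischemia eugenol, against 8.17 and 9.41 RPM in ischemia DMSO, without overlap, and the authors' deposited table gave a log2 fold change of -0.66 (unadjusted p = 0.0341, adjusted p = 0.99997). Gdf6 had 20.1 and 20.3 RPM in ischemia eugenol, against 30.2 and 25.1 RPM in ischemia DMSO, with -0.44 (unadjusted p = 0.0152, adjusted p = 0.99997) in the same deposited table. Plxna3 had 53.6 and 56.0 RPM in ischemia eugenol, against 42.0 and 47.2 RPM in ischemia DMSO, and Epha3 23.1 and 28.0 RPM, against 17.1 and 22.0 RPM. In neither did the 2 groups overlap. The genes of this paragraph were listed for an unadjusted p under 0.05. That listing favours separated libraries, so the lack of overlap adds no support. Notch2 had 72.5 and 77.9 RPM in normoxia eugenol, against 58.6 and 63.5 RPM in normoxia DMSO, with 0.30 (unadjusted p = 0.0224, adjusted p = 0.9997) in the authors' deposited table.

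In none of the 57 did a difference of the ischemia change between eugenol and DMSO pass the threshold. The interaction of oxygen level and treatment in edgeR's quasi-likelihood refit called 0 (smallest adjusted p 0.9998), DESeq2 called 0, and 0.0152% of the 6582 genes were called. At an unadjusted p under 0.05 there were 4 (7.02%), against 3.59% of the 6582. The smallest unadjusted p was that of Fgfr2, whose log2 fold change of ischemia over normoxia was lower with eugenol than with DMSO, with an interaction of -0.71 ± 0.218 (SE, edgeR, unadjusted p = 0.00693, adjusted p = 0.9998). The others were Epha3 (0.51 ± 0.22), Jag1 (-0.45 ± 0.199) and Fgf18 (0.90 ± 0.412), each with an adjusted p of 0.9998. A difference that misses the threshold is not shown to be absent.

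**Figure D4:**
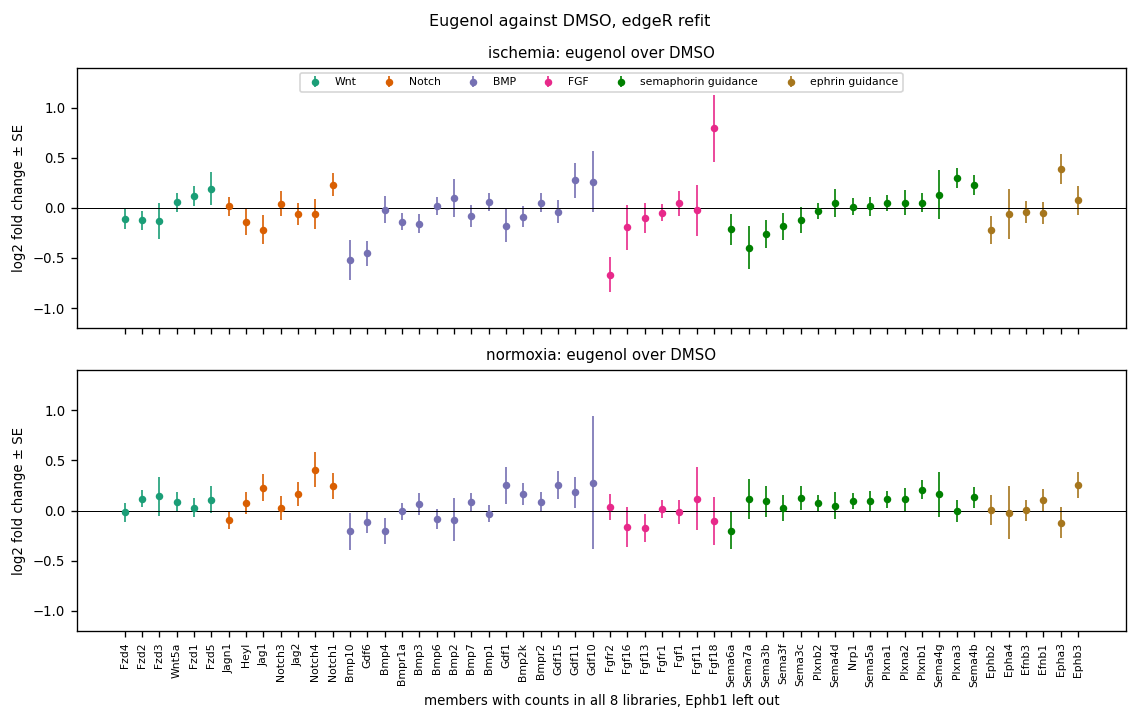
Log2 fold change of eugenol over DMSO, with its standard error, in ischemia (top) and normoxia (bottom) from the edgeR refit for 56 genes, coloured by family; Ephb1, with 1 read in each ischemia group, is left out. The values run from -0.67 for Fgfr2 to 0.79 for Fgf18 in ischemia and from -0.21 for Bmp10 to 0.41 for Notch4 in normoxia, and none was called.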

How the data were processed

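Total RNA of cultured rat cardiomyocytes was made into 8 libraries with Illumina's TruSeq RNA kit, per the labels' protocols. DESeq2, edgeR, HISAT2 and StringTie 1.3.3b appear in the submitters' processing notes with no roles given; the genome build and whether counting used strand are not given in the sources used here. The authors deposited 5 tables of pairwise comparisons, each limited to genes with an unadjusted p under 0.05. Column codes were assigned to groups through the table titles, which allow 1 assignment. Read counts were deposited per gene, and FPKM values were deposited by the authors beside them. The normalized signal deposited by the authors is the count divided by a size factor and was not used for levels. Log2 fold changes are the authors', deposited as the first over the second group, and p-values and adjusted p-values are the authors' too, adjusted over 14362 to 18972 genes.

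RPM was computed as count over the total behind the FPKM values. A call is an authors' adjusted p under 0.05. The 6582 genes with counts in all 8 libraries, which the tables preselected, were fitted again in edgeR 4.0.16 (quasi-likelihood, R 4.3.3), scaled to the totals and without a replicate term, for eugenol effects and the interaction. DESeq2 1.42.0, limma 3.58.1, Python 3.11.15, NumPy 2.4.6, pandas 2.3.3 and matplotlib 3.10.9 were also used. The fit was tested on simulated counts. Replicate libraries differed beyond sampling noise, with a chi-square over its degrees of freedom of 6.67 to 15.5. With 2 against 2 libraries the smallest two-sided p of an exact permutation test is 0.333. Ratios of few reads carry exact intervals for counting error only.

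The genes, gene lists and tests were chosen with earlier results of these data known. Values per library were given for up to 8 genes a family called in both matched comparisons with the largest change and a mean of at least 1 RPM, for genes in a eugenol table, and for the most abundant, with further genes added for their role; of each partner list up to 4 were named.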

Additional observations from a re-analysis of the deposited data

How the results depend on the processing

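A fold minimum of 2 lowered the counts most. It left 31 called genes in ischemia eugenol against normoxia eugenol (13 higher, 18 lower), 29 in ischemia DMSO against normoxia DMSO (12 higher, 17 lower) and 31 in ischemia eugenol against normoxia DMSO (16 lower), where 27.6%, 28.9% and 28.0% of all 8468 listed protein-coding genes passed the same minimum. Of the partners it left 9 Wnt, 1 Notch, 10 BMP, 4 FGF and 2 guidance genes with eugenol, and 10, 1, 11, 4 and 1 with DMSO. TMM, DESeq2 size factors, an adjusted p of 0.01, a minimum of 5 RPM, DESeq2's test and fits of the 2 groups alone kept each count of called members within 1.5 times of the main one. Without each library in turn, edgeR's refit called 54 to 57 members in ischemia eugenol against normoxia eugenol, 54 to 56 in ischemia DMSO against normoxia DMSO, 53 to 56 in ischemia eugenol against normoxia DMSO, and 0 for eugenol and the interaction. The Fzd1 log2 fold change with eugenol was -0.21 in the authors' deposited table and turned to 0.0179 (adjusted p = 0.855) with DESeq2 size factors, which raise all changes by a shared amount. Leaving out a library ended calls of Fzd1, Epha4 and Sema4d, with the values given beside them above, and of no other gene named by the rule. Sema4g, not called by the authors, was called in the refit (-0.85 with eugenol, adjusted p = 0.00422, and -0.82 with DMSO, adjusted p = 0.00521). Libraries of the same replicate number showed little shared deviation: correlations of their deviations between groups were -0.1765 to 0.073. With 2 libraries a group, this does not settle whether they were paired. With the replicate block the refit called 56 members with eugenol, 56 with DMSO and 0 for eugenol, the interaction and the pooled effect. With the numbers of normoxia eugenol crossed, chosen after seeing the data, it called 56 and 0. Depth limits genes of few reads, such as Ephb1, Gdf10, Bmpr1b, Fzd8 and Bmp5. Refitted genes were preselected, so 99.2% to 99.5% of all passed for ischemia in the matched comparisons.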
